A study of Homo sapiens with 16 samples.

Results

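The stretch of chromosome 6 from 25.5 to 34 Mb (hg38) holds the large histone gene clusters and the major histocompatibility complex (MHC), and it was described here from peaks of open chromatin in cells labelled Huh7, an established line from a human hepatocellular carcinoma. All peaks of 4 ATAC-seq libraries in this interval were joined wherever they shared at least 1 bp, which gave 980 regions out of 220925 on chromosomes 1 to 22, X and Y. The histone part, from 25.5 to 28.5 Mb, held 276 regions and the MHC part, from 28.5 to 34 Mb, held 704. The ATAC-seq groups were 2 libraries of cells given sorafenib, a multikinase inhibitor used against liver cancer (replicates 3 and 4 in the titles), and 2 libraries of cells given DMSO, its solvent (replicates 1 and 2). RNA-seq of polyadenylated RNA added 3 libraries each of sorafenib and DMSO, and 3 libraries each of MT1G overexpression and its empty vector. MT1G is a metallothionein, a small metal-binding protein. The labels gave neither a sorafenib dose nor a time, and nothing in them says whether libraries came from separate cultures, so the p-values measure the spread between these libraries, which may be technical.

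Peaks were listed for each library on its own, each with a fold enrichment (column 7 of the peak file), the ratio that the authors' peak caller gives for a peak against its background. The sorafenib libraries listed 139294 and 135671 peaks and the DMSO libraries 131239 and 156760. Over the regions with a peak in all 4 libraries the median fold enrichment was 8.26 and 8.12 in the sorafenib libraries and 9.31 and 11.8 in the DMSO libraries, so column 7 was centred on each library's median before testing. Reads in genes ran from 16549330 to 26781600 per RNA library. Of 8 hepatocyte and hepatoma markers, HNF4A was listed at 88.8 to 152 normalized reads with sorafenib and 333 to 350 with DMSO, and the other 7, among them ALB and AFP, were listed at or near 0 in every library, while of 4 fibroblast markers COL1A1 was listed at 421 to 476 with sorafenib and 432 to 495 with DMSO, LUM at 405 to 483 with sorafenib and 1696 to 1872 with DMSO, and COL1A2 and ACTA2 at 6.41 or less. The listed marker values thus did not show a hepatocyte pattern. Listed values near 0 can lie over open starts, as given below for the MHC part, so they do not settle what the cells are. The cells are called by their label only.

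Replication-dependent histone genes supply the histones that package newly copied DNA. They lie in clusters, and their mRNAs normally end in a stem-loop in place of a poly(A) tail. The same arm of chromosome 6 carries many tRNA genes, butyrophilin genes and genes of zinc finger proteins with a SCAN domain. Beyond them lies the MHC, whose class I genes encode the molecules that show peptides from inside the cell to T cells, and whose class II genes encode those that professional antigen-presenting cells use for peptides taken up from outside. Between them, class III holds complement, cytokine and many housekeeping genes. ATAC-seq marks DNA that a transposase can reach, which includes most active gene starts.

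The starts on which the results below turn are shown first, each as 250 bases before to 50 bases after the annotated gene start, read from the RefSeq promoter table for GRCh38.p14. The table gave starts for 159 of 185 listed genes. Capitals mark 4 motifs searched on both strands, none of which overlapped another here. The TATA box was searched as TATAAA, the CCAAT box by the letters of its name, and the octamer core as TTTGCAT. The AP-1 site was searched as TGANTCA, where N is any base. H2AC6 and H3C10 stand for the histone genes whose RNA rose and whose starts kept their peak. ZSCAN31 and PGBD1 stand for zinc finger and SCAN gene starts with higher peaks. TAPBP, HLA-DQA1, HLA-DPA1 and UBD are starts of the MHC part with a higher, a gained, a lost and a gained peak.
H2AC6, chr6:26123922-26124221, plus strand: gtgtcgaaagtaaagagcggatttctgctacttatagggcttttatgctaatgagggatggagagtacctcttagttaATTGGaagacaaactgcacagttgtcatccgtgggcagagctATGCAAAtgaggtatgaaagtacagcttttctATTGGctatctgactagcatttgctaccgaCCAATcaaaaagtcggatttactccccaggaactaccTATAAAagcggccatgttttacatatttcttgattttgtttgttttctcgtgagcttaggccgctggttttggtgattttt
H3C10, chr6:27809801-27810100, plus strand: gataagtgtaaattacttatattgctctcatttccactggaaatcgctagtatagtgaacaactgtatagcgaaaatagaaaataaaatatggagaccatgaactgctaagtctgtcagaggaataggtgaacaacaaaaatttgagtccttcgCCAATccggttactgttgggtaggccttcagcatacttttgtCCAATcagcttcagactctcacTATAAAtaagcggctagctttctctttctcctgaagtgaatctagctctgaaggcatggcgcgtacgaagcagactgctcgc
ZSCAN31, chr6:28336085-28336384, minus strand: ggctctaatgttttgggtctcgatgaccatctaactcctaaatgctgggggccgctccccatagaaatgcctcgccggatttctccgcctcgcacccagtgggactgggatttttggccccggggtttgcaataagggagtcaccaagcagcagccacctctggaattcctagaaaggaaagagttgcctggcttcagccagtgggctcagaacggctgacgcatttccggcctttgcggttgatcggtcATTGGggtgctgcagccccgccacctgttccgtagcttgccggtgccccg
PGBD1, chr6:28281322-28281621, plus strand: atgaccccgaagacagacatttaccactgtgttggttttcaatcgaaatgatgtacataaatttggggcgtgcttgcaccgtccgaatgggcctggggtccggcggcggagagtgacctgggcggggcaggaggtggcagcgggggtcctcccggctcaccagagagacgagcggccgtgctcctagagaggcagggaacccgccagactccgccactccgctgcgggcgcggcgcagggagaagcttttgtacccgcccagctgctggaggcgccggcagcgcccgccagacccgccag
TAPBP, chr6:33314029-33314328, minus strand: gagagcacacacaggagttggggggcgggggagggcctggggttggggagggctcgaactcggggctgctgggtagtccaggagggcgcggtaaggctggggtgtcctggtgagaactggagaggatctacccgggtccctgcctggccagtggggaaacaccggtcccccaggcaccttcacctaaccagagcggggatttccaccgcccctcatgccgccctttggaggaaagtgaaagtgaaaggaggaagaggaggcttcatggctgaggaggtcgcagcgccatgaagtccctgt
HLA-DQA1, chr6:32637156-32637455, plus strand: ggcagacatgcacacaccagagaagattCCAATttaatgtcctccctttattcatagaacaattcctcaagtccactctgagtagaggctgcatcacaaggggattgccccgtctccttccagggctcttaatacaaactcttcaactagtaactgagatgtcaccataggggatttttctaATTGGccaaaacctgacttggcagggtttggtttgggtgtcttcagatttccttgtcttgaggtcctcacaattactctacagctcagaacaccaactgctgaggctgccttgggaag
HLA-DPA1, chr6:33073600-33073899, minus strand: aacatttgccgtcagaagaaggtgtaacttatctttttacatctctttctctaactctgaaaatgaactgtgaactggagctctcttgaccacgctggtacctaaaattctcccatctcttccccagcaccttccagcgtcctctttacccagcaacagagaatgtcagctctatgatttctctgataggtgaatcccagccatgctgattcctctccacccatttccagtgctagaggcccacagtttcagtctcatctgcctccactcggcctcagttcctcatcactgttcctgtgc
UBD, chr6:29559683-29559982, minus strand: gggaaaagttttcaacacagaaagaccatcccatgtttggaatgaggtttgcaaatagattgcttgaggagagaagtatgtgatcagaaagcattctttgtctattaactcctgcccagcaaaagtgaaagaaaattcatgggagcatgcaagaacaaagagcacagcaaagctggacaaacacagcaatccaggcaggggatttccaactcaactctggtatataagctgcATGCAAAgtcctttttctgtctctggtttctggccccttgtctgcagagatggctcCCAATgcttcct

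The H2AC6 window held 3 CCAAT boxes, 1 octamer core and 1 TATA box, and the H3C10 window 2 CCAAT boxes and 1 TATA box. Of the 54 windows of replication-dependent histone genes, 66.7% held a TATA box, against 11.5% of all 35116 windows in the table. A CCAAT box was in 87.0% of the histone windows against 34.6% of all windows, and an octamer core in 42.6% against 4.46%. An AP-1 site was in 1.85% of histone windows and 7.71% of all windows. Among the 13 class II windows 84.6% held a CCAAT box, and the HLA-DQA1 window held 2. The PGBD1, TAPBP and HLA-DPA1 windows held none of these letters. The summits at H2AC6 lay 139 and 148 bases before the gene start in the sorafenib libraries and 139 bases before it in both DMSO libraries, between the distal CCAAT box and the octamer core. These matches describe the letters in the windows and were not set against binding data.

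Regions of the interval were seldom lost with sorafenib. A gained region is one with a peak in each of the sorafenib libraries and in no DMSO library, and a lost region is the reverse. The histone part had 16 gained and 13 lost regions (5.80% and 4.71% of its regions), and the MHC part 61 gained and 32 lost (8.66% and 4.55%). Over all regions of the genome 6.4% were gained and 12.0% lost, and over the rest of chromosome 6 the shares were 5.29% and 16.0%. The gained shares thus lay near the background and the lost shares below it. With 2 libraries a group these presence calls have no replicate test.

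Most regions of the histone part were open in every library. A peak in all 4 libraries was found for 176 histone part regions (63.8%) and 332 MHC part regions (47.2%), against 34.2% of all regions. The other 71 regions of the histone part had a mixed pattern: 26 had a peak in 1 sorafenib library only, 25 in 1 DMSO library only, 8 in 1 library of each group, 8 in both DMSO libraries and 1 sorafenib library, and 4 in both sorafenib libraries and 1 DMSO library. In the MHC part 279 regions were mixed, of which 149 had a peak in 1 sorafenib library only and 48 in 1 DMSO library only. A further 14 had one in 1 library of each group, 48 in both sorafenib libraries and 1 DMSO library, and 20 in both DMSO libraries and 1 sorafenib library. Mixed patterns made up 25.7% of histone part and 39.6% of MHC part regions, against 47.4% of all regions. The share of each mixed pattern over all regions was not counted, so no lean toward a group is read from these numbers. Leaving out a library loosens the rule for its group: without sorafenib library 3 or 4 the histone part had 30 or 28 gained regions and the MHC part 132 or 139, without DMSO library 1 the lost regions numbered 31 and 68, and without DMSO library 2 the histone part had 20 lost and the MHC part 102 gained regions.

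The interval also took a larger share of each sorafenib library. It held 0.586% and 0.602% of the peaks of the sorafenib libraries, against 0.483% and 0.474% of those of the DMSO libraries. Of the bases under peaks it held 0.757% and 0.759% in the sorafenib libraries and 0.574% and 0.554% in the DMSO libraries. The groups did not overlap in either share. The exact permutation test over the libraries gave p = 0.333 (two-sided) for each, which is the smallest value that 2 libraries against 2 can give. In absolute terms the interval held 816 peaks in each sorafenib library and 634 and 743 in the DMSO libraries. It covered 413.1 and 397.2 kb in the sorafenib libraries and 412.7 and 425.7 kb in the DMSO libraries, which overlapped. All peaks of a library covered 54548 and 52324 kb with sorafenib and 71893 and 76886 kb with DMSO. The MHC part covered 267.6 and 251.2 kb in the sorafenib libraries and 252.0 and 263.1 kb in the DMSO libraries, and these values overlapped. The histone part covered 145.4 and 146.0 kb in the sorafenib libraries and 160.7 and 162.6 kb in the DMSO libraries.

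Shared regions were narrower with sorafenib across the genome, and less so in the interval. The median covered width of a shared region was 445 and 436 bp in the sorafenib libraries and 641 and 628 bp in the DMSO libraries over the whole genome. In the histone part it was 692.5 and 713 bp with sorafenib against 838.5 and 788.5 bp with DMSO. In the MHC part it was 549.5 and 504 bp with sorafenib against 616 and 595.5 bp with DMSO. The median log2 width differed between the groups by -0.21 in the histone part, -0.20 in the MHC part and -0.53 over all shared regions (exact permutation p = 0.333 each, two-sided). Peak width also moves with the depth of a library, which the peak lists do not give, and the part of depth in the widths was not tested. Summits were placed within a median range of 51.5 bp over the 4 libraries in the histone part and 32 bp in the MHC part.

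**Figure D1:**
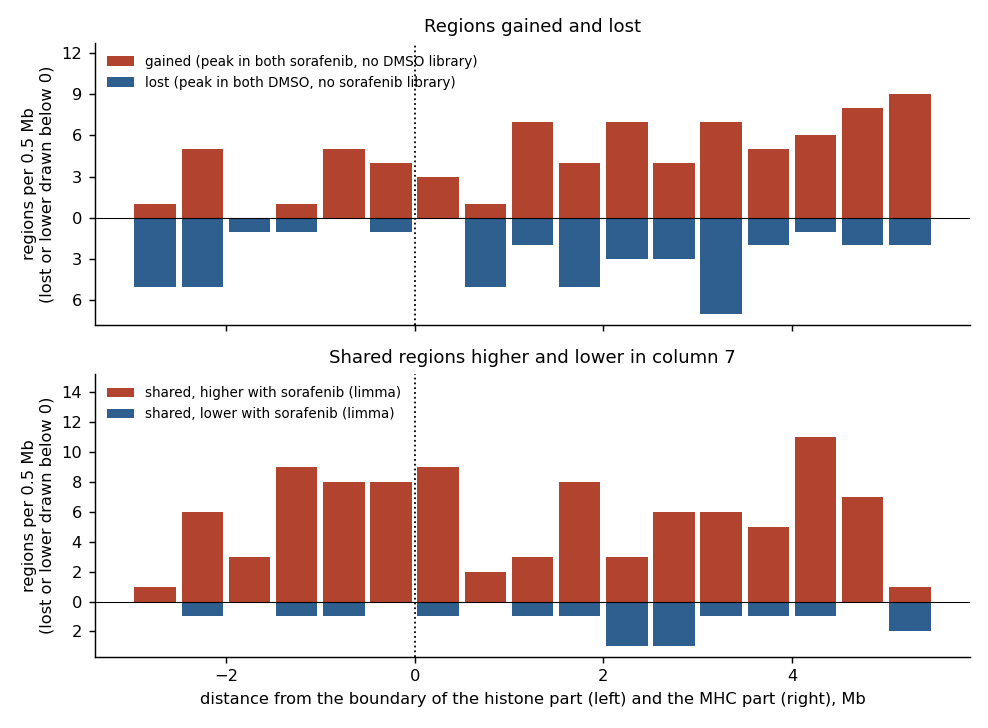
Regions per 0.5 Mb, with gained regions or regions higher with sorafenib drawn upward and lost or lower regions downward, by distance from the boundary between the histone part (left of 0) and the MHC part (right of 0). Higher regions outnumber lower ones in all bins but 2 of the lower panel, and the tallest bar, 11 higher regions between 4 and 4.5 Mb, lies in the class II stretch.

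Among regions open in all 4 libraries, more rose than fell with sorafenib relative to the rest of the genome. In limma's test on centred log2 column 7 (moderated linear model over all 75611 shared regions, Benjamini-Hochberg adjusted p below 0.05), 35 of 176 histone part regions were higher and 3 lower, and 61 of 332 MHC part regions were higher and 14 lower. Over all shared regions 16.9% were called higher and 10.1% lower. The share called higher was thus near the background in both parts (19.9% and 18.4%), and the share called lower was under it (1.70% and 4.22%). The median change was 0.29 in the histone part, 0.23 in the MHC part and 0.12 over all shared regions, on the centred log2 scale. Both sorafenib libraries lay above both DMSO libraries in 59.1% of histone part and 52.4% of MHC part regions, against 41.4% of all shared regions, and below them in 9.66% and 16.3%, against 24.5%.

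These counts depend on the centring. On column 7 as deposited, 6 histone part regions were higher and 8 lower, and 5 MHC part regions were higher and 32 lower, against 2.22% higher and 17.9% lower over all shared regions. The medians then were -0.07 in the histone part, -0.13 in the MHC part and -0.24 over all. With column 7 as deposited, both sorafenib libraries lay above both DMSO libraries in 38 histone part and 55 MHC part regions (12.2% of all shared regions), and below them in 59 and 128 (47.0%). Without DMSO library 2 the centred counts were 20 higher and 1 lower in the histone part and 30 higher and 7 lower in the MHC part. Without sorafenib library 3 the MHC part had 38 higher, without DMSO library 1 it had 40 higher and 7 lower, and without sorafenib library 4 the histone part had 5 lower.

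In this measure the difference between the histone and MHC parts overlapped between the sorafenib and DMSO libraries. The median centred log2 column 7 of the histone part minus that of the MHC part was -0.10 and -0.00 in the sorafenib libraries, and 0.02 and -0.09 in the DMSO libraries. The mean difference of -0.01 was within the spread of the libraries (exact permutation p = 0.667, two-sided). With 2 libraries against 2 this test cannot give a p under 0.333, so it could not have detected a difference of any size. The mean difference has the opposite sign to the difference between the medians of the changes, 0.29 and 0.23.

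Gene starts are set apart from other regions, since both kinds differ across the genome. Of all regions with an annotated start within 1 kb (chromosome 8, for which the table holds no starts, was left out), 3.33% were gained and 4.09% lost, and of those without one 6.73% and 12.6%. In the histone part none of 82 start regions was gained and 2 were lost, and among its 194 other regions 16 were gained and 11 lost (8.25% and 5.67%). In the MHC part 10 of 164 start regions were gained and 3 lost, and among its 540 other regions 51 were gained and 29 lost (9.44% and 5.37%). Of shared start regions 11 of 72 in the histone part and 21 of 109 in the MHC part were higher (15.3% and 19.3%), against 25.3% of shared start regions in the genome. Of shared regions away from starts 24 of 104 and 40 of 223 were higher (23.1% and 17.9%), against 15.1% in the genome.

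The MHC part is given by stretch, beside 16.9% higher and 10.1% lower of shared regions and 6.4% gained and 12.0% lost of all regions in the genome. The class II stretch, taken here from the end of NOTCH4 to the end of HLA-DPB1, had 12 higher and 1 lower of 29 shared regions, with a median change of 0.38, and 10 gained and 3 lost of 78 regions. The class I stretch from HLA-F to MICB had 20 higher and 7 lower of 127, and 21 gained and 11 lost of 251. Class III had 10 higher and 2 lower of 61, and 7 gained and 8 lost of 126. The extended class I stretch before HLA-F had 11 higher and 2 lower of 53, and 6 gained and 7 lost of 108. The extended class II stretch after HLA-DPB1 had 8 higher and 2 lower of 62 with a median of 0.08, and 17 gained and 3 lost of 141. The differences between the stretches were not tested.

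The starts of the replication-dependent histone genes kept their peaks. Of 55 such genes 50 had an annotated start and 43 had a region within 1 kb of it. With 1 region taken per gene, the nearest to its start, these were 34 regions, all open in every library. For a gene with several starts a region open in every library was taken first, and then the one of higher fold enrichment. That choice favours regions open in every library. Of all start regions in the genome, with no such choice per gene, 69.1% were open in every library. None of the 34 passed limma's test in either direction, against 25.3% higher and 2.10% lower of shared start regions in the genome. At an unadjusted p under 0.05, 8 of the 34 were higher and 0 lower. In the genome 5341 of 13034 shared start regions were higher and 449 lower at that level. Within 1 kb of histone starts lay 12 further regions, of which 9 were shared and 3 mixed, and 2 of the 9 were called higher and none lower. These were chr6:26198377-26198685, 608 bp from the H2AC7 start, with 3.08 and 3.24 with sorafenib and 2.44 and 1.99 with DMSO (0.88, adjusted p = 0.0223), and chr6:27894180-27894747, 755 bp from the H2BC17 start, with 5.10 and 5.08 against 2.87 and 2.89 (1.18, adjusted p = 0.00318). For the 34 regions the median change was 0.28 on the centred log2 scale, with a range of -0.23 to 0.53, and -0.08 as deposited. The median fold enrichment at these starts was 6.73 and 6.62 in the sorafenib libraries and 6.86 and 7.13 in the DMSO libraries, and the median covered width 1167 and 1130.5 bp against 1239.5 and 1149.5 bp. H2AC6 and H2BC4, an H2A and an H2B gene, share the region chr6:26122897-26124667, with fold enrichments of 5.64 and 5.99 with sorafenib and 7.90 and 8.19 with DMSO. The groups did not overlap there as deposited, and the centred change was -0.11 ± 0.22 (SE, limma adjusted p = 0.742).

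H2BC8 and H2AC8 share the broadest region of the histone part, chr6:26215371-26217497, at 7.67 and 6.90 with sorafenib and 8.31 and 8.61 with DMSO (centred change 0.14, limma adjusted p = 0.648). Next came chr6:27279523-27281489 over the tRNA gene TRV-CAC2-1, and chr6:27145759-27147706 over H2BC12 and H2AC12, at 7.18 and 7.37 with sorafenib and 8.21 and 9.77 with DMSO. By class, the median change was 0.43 over 5 regions of H1 genes, 0.29 over 10 of H2A genes, 0.17 over 13 of H2B genes, 0.18 over 8 of H3 genes and 0.38 over 7 of H4 genes, and none of these regions, 1 per gene, was called.

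The RNA listed for the same genes rose with sorafenib. The libraries were of polyadenylated RNA and these mRNAs normally lack a poly(A) tail, so the values do not measure all histone mRNA. A change in total histone mRNA was not tested. Of the 55 histone genes 34 had a mean of at least 10 normalized reads over the 6 libraries and were tested (reads per gene divided by a size factor of the library), and all 34 were higher by limma on log2(normalized read count + 1), with changes of 0.92 to 5.40 and a median of 3.40. Over all 14915 tested genes 34.4% were higher and 35.8% lower. Because the filter uses both groups, a gene can pass through its sorafenib values alone: 21 of the 34 also had a DMSO mean of at least 10. Of the 21 genes not tested, 13 had a higher sorafenib mean, 4 a lower one and 4 were at 0 in all libraries. Histone genes are near-identical copies, and how reads that match several of them were counted is not given in the sources used here, so values of single genes are uncertain. In bulk RNA, fewer cells of a type and less RNA per cell cannot be told apart.

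H2AC6, an H2A gene, had 10625, 11227 and 10662 normalized reads with sorafenib and 272, 272 and 272 with DMSO. It was higher in 3 of 3 sorafenib libraries than in any DMSO library (log2 change 5.31 ± 0.06, SE, limma adjusted p = 6.72e-19). H3C10, an H3 gene, had 1080, 1098 and 1030 with sorafenib against 22.5, 28.0 and 25.1 with DMSO (5.36 ± 0.12, adjusted p = 2.28e-15), and its start region had fold enrichments of 4.13 and 3.71 with sorafenib and 4.21 and 5.21 with DMSO. H2BC9, an H2B gene, had 1073, 1124 and 1071 against 37.1, 47.2 and 37.1 (4.72 ± 0.12, adjusted p = 7.1e-15), over a start region at 4.02 and 4.95 with sorafenib and 4.50 and 5.44 with DMSO. H2BC5 had 1010, 1027 and 919 with sorafenib against 132, 117 and 132 with DMSO (2.95 ± 0.09, adjusted p = 1.7e-13), over a start region at 6.19 and 5.31 with sorafenib and 7.81 and 7.16 with DMSO. In these 4 genes the RNA groups did not overlap, and none of their start regions passed the test (adjusted p between 0.521 and 0.952).

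**Figure D2:**
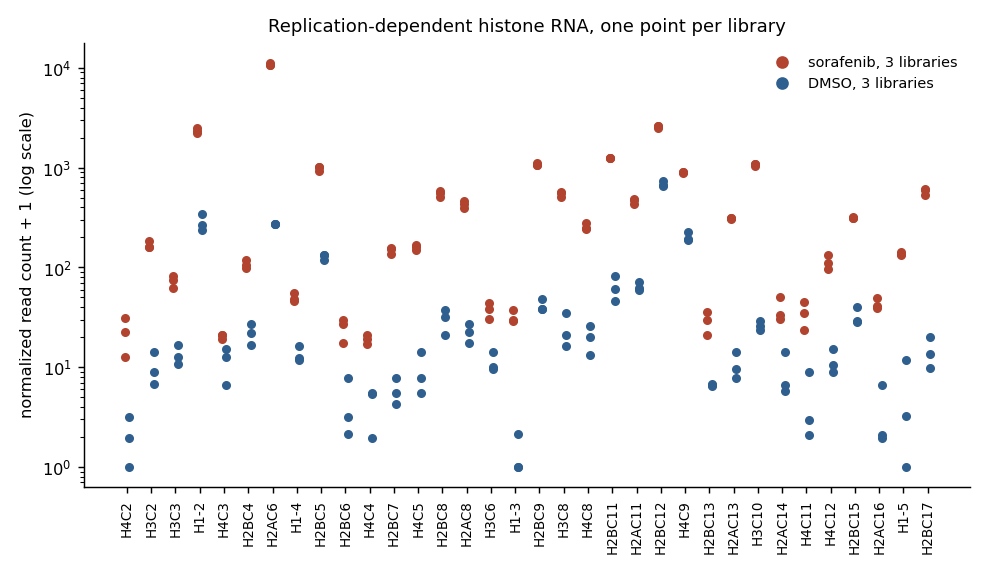
Normalized read count plus 1 (log axis) of the 34 tested replication-dependent histone genes in the order of their position, with 3 sorafenib libraries left and 3 DMSO libraries right for each gene. In every gene the sorafenib points lie above the DMSO points, from 10625 to 11227 against 272 in H2AC6.

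With MT1G overexpression 18 histone genes were tested and 3 were higher, against 11.5% higher and 11.3% lower over all 13914 tested genes (5 higher and 1 lower at an unadjusted p under 0.05). H2AC6 had 464, 358 and 369 normalized reads with MT1G overexpression and 230, 208 and 251 with empty vector (0.78 ± 0.13, SE, limma adjusted p = 0.000148). H4C9 averaged 289 with MT1G overexpression and 193 with vector (0.57, adjusted p = 0.00907), and H2BC4 25.6 against 12.8 (0.98, adjusted p = 0.0427). The other 2 genes of the histone part past the test were TRIM38, a ubiquitin ligase gene, and BTN2A1, a butyrophilin gene, both higher. In all, 5 of the 47 tested genes of the histone part were higher and 0 lower, beside the 11.5% and 11.3% over all tested genes. These counts were small and moved with single libraries: without MT1G overexpression library 1, 2 or 3 the histone part had 3, 2 or 7 higher genes, without vector library 2 it had 3, and without overexpression library 3 it had 1 lower.

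The zinc finger and SCAN genes of the interval had higher peaks at several starts. Of 21 such genes in the interval 13 had a start region. All 13 regions were open in every library, under the same choice per gene, which favours such regions. By limma 6 were higher and none lower, against 16.9% higher over all shared regions and 25.3% over shared start regions. Their median change was 0.39 on the centred log2 scale and 0.03 as deposited. ZSCAN31 had fold enrichments of 18.3 and 18.9 with sorafenib and 13.8 and 16.4 with DMSO, with no overlap as deposited (centred change 0.66 ± 0.12, SE, adjusted p = 0.00222). Its change was 0.62 to 0.71 when 1 library was left out, which leaves 1 library in a group. ZSCAN31 was not called without centring (limma adjusted p = 0.337). Its summits lay 466 to 479 bases downstream of the annotated start, outside the printed window.

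ZNF322, at the highest shared region of the histone part, had 22.8 and 22.9 with sorafenib and 17.2 and 24.6 with DMSO. These overlapped as deposited, and the centred change was 0.51 (adjusted p = 0.00313). PGBD1, a gene derived from a piggyBac transposase, had 14.5 and 13.5 with sorafenib and 10.9 and 13.7 with DMSO (0.55, adjusted p = 0.0149, and 0.0614 without sorafenib library 3). ZSCAN12 had 19.5 and 19.2 with sorafenib and 17.9 and 18.1 with DMSO (0.46, adjusted p = 0.0166, and 0.111 without DMSO library 2). ZKSCAN3 had 20.1 and 21.2 against 16.2 and 23.8 (0.43, adjusted p = 0.0124, and 0.0797 without DMSO library 1). The sixth, ZBTB9, lies in the MHC part. It had 23.1 and 19.2 with sorafenib against 18.2 and 24.8 with DMSO (0.35, adjusted p = 0.031), its change was -0.01 without centring, and it missed the threshold without sorafenib library 3 or either DMSO library (adjusted p 0.0608 to 0.242). None of these 6 calls held without centring.

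RNA of 11 of the 12 tested zinc finger and SCAN genes was higher with sorafenib and none lower, against 34.4% higher and 35.8% lower over all tested genes, with a median change of 0.86. ZNF184 had 430, 474 and 562 normalized reads with sorafenib and 185, 202 and 147 with DMSO (1.46 ± 0.12, SE, limma adjusted p = 2.94e-08). ZSCAN26 had 399, 419 and 468 against 175, 156 and 148 (1.42, adjusted p = 4.76e-09). ZSCAN31 had 276, 263 and 243 with sorafenib and 132, 130 and 106 with DMSO (1.09, adjusted p = 6.2e-07), so both its peak and its RNA were higher. The 3 libraries of each group did not overlap in these genes. ZKSCAN8 and ZSCAN12 also rose (0.67 and 0.87), and ZKSCAN3, whose start region was higher, did not pass (87, 84 and 68 with sorafenib against 75, 71 and 86 with DMSO, adjusted p = 0.851). None of the 12 passed limma's test with MT1G overexpression, and 2 were higher at an unadjusted p under 0.05.

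**Figure D3:**
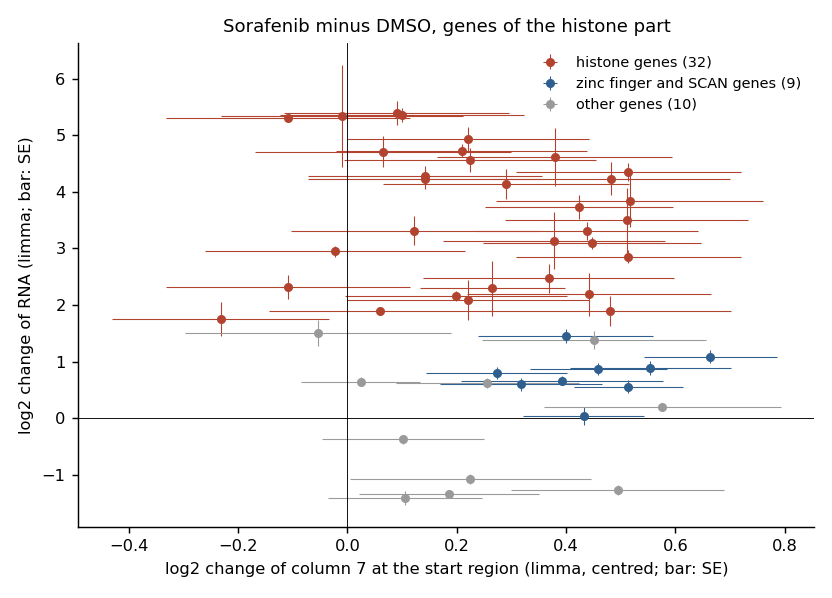
Change of RNA (vertical, limma log2, sorafenib minus DMSO) against the change of column 7 at the start region (horizontal, centred log2) for the 51 genes of the histone part with a region in all 4 libraries and a tested RNA, with standard errors as bars. The 32 histone genes lie between 1.75 and 5.40 in RNA and between -0.23 and 0.52 at the start, while the 9 zinc finger and SCAN genes lie at smaller RNA changes to the right of 0.

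Butyrophilins, relatives of the B7 costimulatory molecules, had RNA that moved both ways. The 3 shared start regions changed by 0.02 to 0.19 and none was called by limma or had an unadjusted p under 0.05. BTN3A2 had 457, 468 and 445 normalized reads with sorafenib and 1159, 1129 and 1183 with DMSO (-1.34 ± 0.07, SE, limma adjusted p = 6.8e-11), over a start region at 12.9 and 14.4 with sorafenib and 16.0 and 14.8 with DMSO. BTN3A1 and BTN3A3 fell by 1.25 and 1.41 on the log2 scale (adjusted p = 5.47e-09 and 2.76e-08). BTN2A2 and BTN2A1 rose (1.27 and 0.64, adjusted p = 5.25e-08 and 2.04e-06). All 3 tested members of the BTN3A group were thus lower and both tested members of the BTN2A group higher.

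Of the other listed genes of the histone part, 4 shared start regions changed by 0.10 to 0.58, and none was called by limma, with 1 higher at an unadjusted p under 0.05. Of 6 tested genes 2 were higher and 3 lower in RNA. RNA of CARMIL1, a regulator of actin capping, averaged 327 with sorafenib and 815 with DMSO (-1.31, limma adjusted p = 1.05e-09). HFE, the iron-regulating gene mutated in haemochromatosis, averaged 298 against 629 (-1.07, adjusted p = 1.97e-08), and ABT1 911 against 1182 (-0.38, adjusted p = 0.000196). TRIM38 averaged 689 with sorafenib and 448 with DMSO (0.62, adjusted p = 1.42e-05), and HMGN4, a nucleosome-binding protein gene, 2084 against 1826 (0.19, adjusted p = 0.0109). Of all tested genes 34.4% were higher and 35.8% lower. In all, 58 of 68 tested genes of the histone part were higher and 7 lower, among them 13 histone genes and OR2B6 with a DMSO mean under 10, and without the histone list 24 of 34 were higher and 7 lower. The olfactory receptor gene OR2B6 had 254, 255 and 256 normalized reads with sorafenib and 2.2, 1.9 and 1.1 with DMSO (6.56 ± 0.27, adjusted p = 3.68e-12) with no region within 1 kb of its start. It was tested only because its sorafenib values lifted its mean over 10.

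Of the 5 largest rises of the histone part 4 lay over 1 kb from any start in the table. The region chr6:27031329-27031655, 11023 bp from the LARRPM start, had fold enrichments of 15.4 and 15.7 with sorafenib and 4.33 and 8.14 with DMSO (centred change 1.75 ± 0.21, SE, limma adjusted p = 0.000266, and 0.00156 without centring). The region chr6:27286195-27286846 had 13.2 and 11.2 against 4.04 and 5.84 (1.68, adjusted p = 0.000312). The next rises were chr6:27633066-27633527 (1.24), chr6:27894180-27894747, 755 bases from the H2BC17 start (1.18), and chr6:26388099-26388753 within BTN2A2 (1.18), each past the threshold on both scales. In all 5 the sorafenib libraries were above the DMSO libraries as deposited. The 5 were picked as the largest rises without overlap between groups, so this adds no separate support.

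The largest fall of the histone part was chr6:27526659-27527625, with 4.68 and 3.64 with sorafenib and 9.82 and 13.1 with DMSO (-1.10 ± 0.22, SE, limma adjusted p = 0.00393). The region chr6:26243039-26244053, 2646 bp from the H4C6 start, had 5.97 and 6.15 against 11.2 and 15.6 (-0.77, adjusted p = 0.012, and 0.0884 without DMSO library 2). The region chr6:27168166-27169111 had 7.43 and 8.69 against 15.0 and 15.4 (-0.56, adjusted p = 0.0367, between 0.0516 and 0.233 without sorafenib library 3 or either DMSO library). The other 2 of the 5 largest falls, chr6:26309524-26310067 and chr6:25890369-25890793, changed by -0.61 and -0.55 and missed the threshold (adjusted p = 0.0646 and 0.0716, and 0.00758 and 0.0189 without centring).

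Among gained regions of the histone part the highest was chr6:27718847-27719322, with 7.39 and 12.1 with sorafenib and no peak with DMSO. It was followed by chr6:27541609-27541929 over the tRNA gene TRS-AGA1-1 (6.06 and 7.01), chr6:25597548-25597766 within CARMIL1 (6.88 and 6.17), chr6:26426767-26427021 within BTN2A3P (6.18 and 6.36) and chr6:26464065-26464317 within BTN2A1 (5.51 and 6.45). The highest lost region was chr6:25574380-25574645 within CARMIL1, with no peak with sorafenib and 5.20 and 9.18 with DMSO. The others were chr6:25602460-25602709 within CARMIL1 (5.49 and 7.93 with DMSO), chr6:25697957-25698256 within SCGN (6.07 and 4.80), chr6:25889971-25890195 (4.62 and 5.84) and chr6:25718252-25718450 (4.92 and 5.46). All 5 lay in the first 0.4 Mb of the histone part. The 2 other highest shared regions of the histone part besides ZNF322, chr6:26341542-26342334 (21.4 and 20.6 with sorafenib, 17.9 and 26.4 with DMSO) and chr6:26420515-26421897 within BTN2A3P (18.4 and 18.3 against 21.8 and 24.1), overlapped or were lower with sorafenib as deposited, and their centred changes were 0.31 (adjusted p = 0.0427, lost when sorafenib library 3 or 4 or DMSO library 1 was left out) and 0.04 (adjusted p = 0.82). Averaged over the peaks within it, the BTN2A3P region changed by -0.61 (adjusted p = 0.0154).

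tRNA genes, a grouping made after these values had been seen, were often under open regions. The histone part held 100 annotated tRNA genes and the MHC part 40, of which 56 and 25 lay in a region open in all 4 libraries. Of 86 regions over tRNA genes 71 were shared, 3 gained, none lost and 12 mixed. Of the shared ones 20 were higher and none lower by limma (28.2%), against 19 higher and 1 lower of 122 shared regions over tRNA genes elsewhere in the genome (15.6%). The median change was 0.39 in the interval and 0.30 elsewhere, on the centred log2 scale. As an example, chr6:27279523-27281489 over TRV-CAC2-1 had 10.9 and 11.8 with sorafenib and 7.54 and 8.13 with DMSO (0.89, limma adjusted p = 0.00569, and 0.153 without centring). The counts rested on all libraries and on the centring: 12 were higher without sorafenib library 3 or 4, 13 without DMSO library 1, 8 without DMSO library 2 and 0 without centring.

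In the MHC part the class I heavy chain genes had 6 start regions, of which 4 were shared, 1 mixed and 1 gained. None of the 4 was called, and 1 was higher at an unadjusted p under 0.05. HLA-C had 12.7 and 9.53 with sorafenib and 5.49 and 13.8 with DMSO, which overlapped (centred change 0.70, limma adjusted p = 0.0784). HLA-F had 14.8 and 12.9 against 12.7 and 20.0 (0.15, adjusted p = 0.471). HLA-B had a peak of 4.95 and 7.85 in the sorafenib libraries, and of 2.92 in DMSO library 2 only. HLA-G, normally restricted to placenta and a few other sites, gained a region at its start, with 4.68 and 4.21 with sorafenib and no peak with DMSO.

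Peptide loading and immunoproteasome genes had 4 distinct start regions, all shared. TAPBP, the tapasin gene, whose product brings class I molecules to the peptide transporter, had fold enrichments of 4.43 and 5.40 with sorafenib and 3.77 and 2.74 with DMSO, without overlap (0.96, limma adjusted p = 0.0213, but 0.0668 without centring, 0.102 without sorafenib library 4 and 0.164 without DMSO library 2). TAP1 and PSMB9, a transporter subunit and an immunoproteasome subunit, share a region at 13.7 and 12.5 with sorafenib and 15.1 and 15.0 with DMSO (0.16, adjusted p = 0.469). PSMB8 had 15.3 and 14.9 against 16.4 and 18.5 (0.15, adjusted p = 0.385).

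Of 13 class II genes 9 had a start region, of which 3 were shared and not called, 1 gained, 1 lost and 4 mixed. HLA-DQA1, a class II alpha chain gene, gained chr6:32636432-32637498, with 9.24 and 9.58 with sorafenib. The peak of library 3 spans the start, with its summit 101 bp before it, while that of library 4 covers 401 bp with its summit 606 bp before the start. HLA-DPA1, another alpha chain gene, lost chr6:33073600-33073846, which had 5.20 and 9.81 with DMSO and no peak with sorafenib. HLA-DMA, whose product helps load class II molecules, had one of the 3 highest shared regions of the MHC part. It had 22.8 and 19.7 with sorafenib and 19.3 and 25.8 with DMSO (0.29, limma adjusted p = 0.0507). Without sorafenib library 4 the change was 0.38. Class II genes are normally active in leukocytes, and the leukocyte markers PTPRC, CD3E and LYZ were listed at or near 0 in the RNA of both groups, with CD74 at 3.38 to 7.48 with sorafenib and 0 to 1.09 with DMSO.

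The class II stretch also held strong changes between genes. The region chr6:32622476-32622934, 14472 bp from the HLA-DQA1 start, had 17.9 and 15.4 with sorafenib and 8.09 and 11.1 with DMSO (1.17 ± 0.16, SE, limma adjusted p = 0.000431). The region chr6:32785949-32786193, 22417 bp from the HLA-DQB2 start, had 8.81 and 7.29 against 3.76 and 6.05 (1.11, adjusted p = 0.00464, and 0.0709 without centring). Gained regions there included chr6:32462556-32463107 (13.5 and 12.4 with sorafenib) and chr6:32774480-32774760 (8.53 and 9.53). The sorafenib libraries lay above the DMSO libraries in both shared regions as deposited.

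The chromatin and RNA list had 27 genes in the interval, whose 22 start regions lay mostly in the class I stretch (13) and class III (6). Of these regions 21 were shared. By limma 2 were higher, against 25.3% of shared start regions in the genome, and none was lower. At an unadjusted p under 0.05, 4 were higher and 1 lower. POLR1H, an RNA polymerase I subunit gene, had 18.3 and 17.5 with sorafenib and 13.3 and 16.5 with DMSO (0.63, limma adjusted p = 0.00307). ABCF1, an initiation factor gene of the ABC family, had 17.9 and 18.1 against 16.5 and 18.6 (0.40, adjusted p = 0.0254, but 0.078 without sorafenib library 4 and 0.119 without DMSO library 2). Neither call held without centring (adjusted p = 0.407 and 0.932). The complement and heat shock lists had 2 shared start regions each, none called, with 1 of the heat shock regions higher at an unadjusted p under 0.05. Among cytokine genes and regulators LST1 gained a region 430 bases from its start (3.80 and 4.13 with sorafenib). Of 20 genes of the olfactory receptor stretch 17 had an annotated start, 3 had a region, and the only one with a peak in both sorafenib libraries and no DMSO library was at UBD, the ubiquitin-like gene FAT10 that lies among them (4.86 and 5.21).

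**Figure D4:**
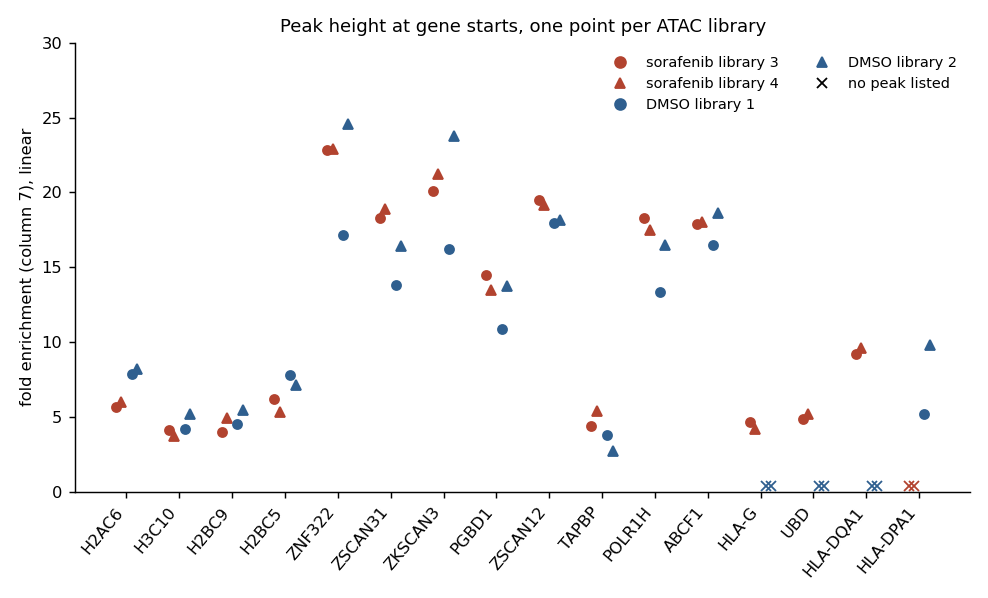
Fold enrichment (column 7 as deposited, linear axis) at 16 gene starts, with the 2 sorafenib libraries left and the 2 DMSO libraries right for each start and crosses where a library listed no peak. Histone starts lie below 10, zinc finger and SCAN starts reach 24.6, and HLA-G, UBD and HLA-DQA1 have crosses for DMSO only and HLA-DPA1 for sorafenib only.

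The gained region of highest fold enrichment in the MHC part was chr6:29561093-29561843, 1361 bp from the UBD start, with 14.1 and 12.9 with sorafenib and no peak with DMSO. The region chr6:31578325-31578881 overlapping TNF, 2760 bp from its start, the gene of the inflammatory cytokine tumour necrosis factor, was gained with 11.2 and 10.8. Of the lost regions chr6:30836231-30836874, 5572 bp from the LINC00243 start, was highest, with 12.7 and 16.8 with DMSO and no peak with sorafenib. The neighbouring chr6:30841760-30842328 within LINC02570 was also lost (7.03 and 8.01 with DMSO), as were chr6:29531720-29531982 within LINC01015 (8.09 and 6.88) and chr6:29354578-29355160 within OR5V1 (5.78 and 8.55).

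Among shared regions of the MHC part the largest rises outside class II were chr6:31010725-31011009 at MUC22, a mucin gene, with 8.17 and 6.15 with sorafenib and 4.09 and 3.21 with DMSO (1.33 ± 0.27, SE, limma adjusted p = 0.00383), chr6:31185809-31186302 within PSORS1C3 (1.23) and chr6:30130765-30131518 (1.18). The largest fall was chr6:30787907-30788470 within HCG20, with 3.15 and 3.79 with sorafenib and 10.4 and 15.5 with DMSO (-1.52 ± 0.23, adjusted p = 0.000759). The region chr6:31048007-31048482 had 5.74 and 4.65 against 13.5 and 21.7 (-1.37, adjusted p = 0.000787), and chr6:31746922-31747646 within MSH5, a meiotic recombination gene, 3.88 and 5.84 against 14.4 and 17.0 (-1.36, adjusted p = 0.00146). The falls at chr6:30129281-30130232 and chr6:29566375-29567249 were -1.22 and -1.02. The first lies beside a rise, since beyond 1 lost region between them chr6:30130765-30131518 had 13.7 and 13.4 with sorafenib and 6.68 and 8.86 with DMSO. The broadest shared regions, at TRIM27, DDR1 and the PPT2 and PRRT1 starts, were not called, nor was the highest, chr6:32255171-32255853 within TSBP1-AS1 (22.9 and 21.6 with sorafenib, 22.1 and 27.6 with DMSO, adjusted p = 0.0962), nor chr6:31366747-31367459 near HLA-B (19.8 and 19.3 against 21.6 and 26.4, adjusted p = 0.596).

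The RNA tables could not be read in the same way for the MHC part. Of 171 protein coding genes listed there 137 had a mean under 1 normalized read over the sorafenib and DMSO libraries (80.1%), against 18.0% of 89 in the histone part and 25.6% of 18907 in the genome. In the MT1G experiment it was 81.3% of the same 171. RPS18, a ribosomal protein gene that every cell uses, was listed at 0.844, 0 and 0 with sorafenib and at 0 in the 3 DMSO libraries, while its start had fold enrichments of 11.3 and 11.6 with sorafenib and 14.1 and 16.0 with DMSO. FLOT1 and PSMB8 were listed at 0 in all 6 libraries over starts that were open in all 4. Of the genes of the MHC part with a mean under 1 and an annotated start, 67 of 129 had a region in all 4 libraries at the start (51.9%), against 431 of 3576 outside the interval (12.1%). The cause of these low listed values was not tested, and no statement on expression is drawn from a value near 0 there.

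**Figure D5:**
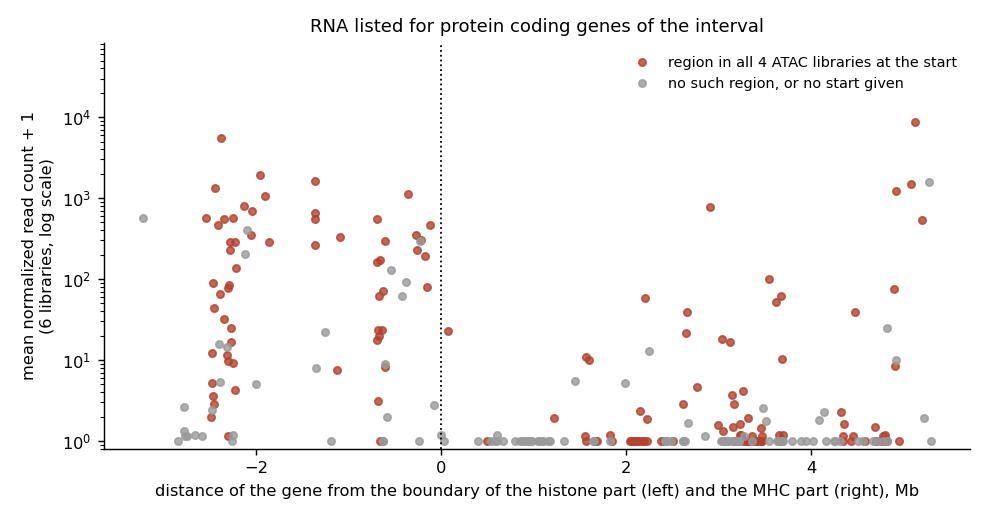
Mean normalized read count plus 1 (log axis, 6 libraries of the sorafenib experiment) of each protein coding gene against its distance from the boundary between the histone part (left of 0) and the MHC part (right of 0), in red where a region open in all 4 ATAC libraries lies at its start. Right of the boundary most genes have a mean under 1, among them 67 with an open start.

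Of 19 genes of the MHC part that could be tested 5 were higher and 3 lower with sorafenib (34.4% and 35.8% of all tested genes), and they are named because they are few. The higher ones were SCAND3, MDC1, TCF19, BAK1 and LEMD2, and the lower ones CCHCR1, AGPAT1 and UQCC2. SCAND3, a SCAN domain gene of transposon origin, averaged 31.1 normalized reads with sorafenib and 12.2 with DMSO (1.39, adjusted p = 0.00392), and its start region was also higher, at 13.4 and 9.60 with sorafenib and 8.78 and 9.68 with DMSO (0.66, adjusted p = 0.0284, and 0.463 without centring). These overlapped as deposited. MDC1, a mediator of the DNA damage checkpoint, had 54.9, 98.8 and 78.0 normalized reads with sorafenib and 41.6, 39.5 and 27.3 with DMSO (1.06 ± 0.24, SE, limma adjusted p = 0.000826). BAK1, a pore-forming apoptosis protein gene, averaged 1741 with sorafenib and 1207 with DMSO (0.53, adjusted p = 1.93e-05). MICA, a stress ligand for natural killer cells and the only tested gene of the class I list, averaged 815 against 718 (0.20, adjusted p = 0.306), and its start region did not pass either (7.67 and 8.15 with sorafenib, 7.82 and 9.27 with DMSO, adjusted p = 0.37).

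At the edges of the interval, the first region inside, chr6:25556474-25556932, had 8.26 and 7.57 with sorafenib and 9.53 and 17.5 with DMSO, and the last one below it, 9330 bp outside the edge, had 15.6 and 16.6 against 14.4 and 21.9. The last region of the histone part had 8.53 and 8.12 with sorafenib and 8.83 and 12.2 with DMSO, and the first of the MHC part was a gained region over the tRNA gene TRI-TAT3-1 (2.36 and 4.06). The last region inside the upper edge had a peak of 2.87 in sorafenib library 4 only, and the first beyond it one of 3.37 in sorafenib library 3 only.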

How the data were processed

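ATAC-seq was measured in 2 sorafenib and 2 DMSO libraries and RNA-seq in 4 groups of 3. The submitters' processing notes name cutadapt, HISAT2 1.1.0, featureCounts 1.6.1, DESeq2, Bowtie2 2.4.1, Picard, SAMtools, MACS2 2.2.7.1 and hg38, without roles or order. In the peak lists the authors deposited for each library, column 7 is a ratio (fold enrichment), columns 8 and 9 hold −log10 p and −log10 q, and column 5 is a score of 10 times −log10 q. The deposited RNA signal values are reads per gene divided by a size factor per library. In the sorafenib table whole reads were recovered for 100% of values within 0.001.

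Peaks sharing at least 1 bp were merged over the 4 libraries. A region's column 7 is that of its highest peak per library. Regions in all 4 libraries were tested with limma 3.58.1 (R 4.3.3) on log2 column 7, centred on each library's median, with Benjamini-Hochberg adjustment over all 75611 (threshold 0.05). RNA was tested with limma on log2(value + 1) for genes averaging 10 or more over the 6 libraries. Single values per library had an exact permutation test. DESeq2 1.42.0 and edgeR 4.0.16 on recovered reads, pseudocounts, filters, centring, a stricter q, leaving out libraries and the replicate block were alternatives. Starts came from the RefSeq promoter table (GRCh38.p14), without chromosome 8. Both limma fits were tested on simulated data. Text tables were handled with pandas 2.3.3.

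Regions named are, for each part, the 5 gained and 5 lost of highest column 7, the 5 largest rises and falls without overlap between groups, and the 3 broadest and 3 highest shared regions. Genes named are list members at called, gained or lost regions or with called RNA, up to 4 per list by p. Members and lists were chosen with earlier results of these data known. The tRNA grouping, and the small sets of called genes in the MHC part and with MT1G overexpression, OR2B6 and the examples near 0 were named after their values were seen. Peak lists give no depth, so the precision of a single fold enrichment is unknown. A few single genes are not reported here.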

Additional observations from a re-analysis of the deposited data

How the results depend on the processing

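Peak heights depended most on the centring. Without it 6 histone part regions were higher and 8 lower, 5 MHC part regions higher and 32 lower, and 0 tRNA gene regions higher. Then chr6:26341542-26342334 changed by -0.053 and the ZBTB9 start by -0.013. With the mean column 7 of a region's peaks 7 MHC part regions were lower, and with peaks of −log10 q of at least 5 the number was 9. The log2 ratio of covered bases, sorafenib over DMSO, was then -0.16 in the histone part and -0.057 in the MHC part, and with equal numbers of top peaks it was -0.14 in the histone part. The causes were not tested.

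Leaving out 1 library gave 17 to 30 gained and 16 to 31 lost histone part regions, and 68 to 139 gained and 38 to 68 lost MHC part regions. It gave 20 to 29 higher and 1 to 5 lower histone part regions, 30 to 43 higher and 7 to 11 lower MHC part regions, and 8 to 13 higher tRNA gene regions. The histone part log2 ratio of covered bases was then -0.16 to -0.14.

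RNA counts with sorafenib held within 1.5 times under DESeq2 and edgeR on recovered reads (edgeR, chosen after seeing the data, called 58 histone part genes higher and 7 lower) and pseudocounts of 0.5 and 5. Without the filter 8 MHC part genes were higher with sorafenib, and with MT1G overexpression 1 histone part gene was lower and 2 MHC part genes higher. With MT1G overexpression, leaving out 1 library gave 2 to 7 higher and 0 to 1 lower histone part genes, and 0 to 2 higher and 0 to 1 lower MHC part genes.

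With the replicate block 3 MHC part genes were higher with MT1G overexpression, and 58 histone part genes were higher with sorafenib. Deviations of same-numbered libraries correlated at -0.06 to 0.03 for sorafenib and -0.14 to 0.04 for MT1G, so no pairing by number was seen. Such correlations cannot settle whether the numbers denote pairs, and the main tests treated the samples as unpaired. No paired analysis was possible for ATAC-seq because the groups share no replicate numbers.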
